A study of Mus musculus with 5 samples.

Results

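Preadipocytes are the fibroblast-like precursors in the stroma of adipose tissue that can become fat cells. The cells compared here were preadipocytes of mouse inguinal white adipose tissue at 21 d and at 28 d of age. They were picked by their own counts of unique molecular identifiers (UMIs, each standing for 1 captured RNA molecule). A cell was kept when Col1a1, Col1a2 and Col3a1 together made up at least 2% of its UMIs, when it held at least 1 UMI of Pdgfra, a receptor that marks these precursors, and when it held none of Ptprc, Pecam1 and Mki67, which mark blood, endothelial and dividing cells. This kept 3914 of 11522 cells at 21 d (34.0%, 95% exact binomial interval 33.1 to 34.8%) and 1077 of 7623 cells at 28 d (14.1%, 13.4 to 14.9%), so 4991 of the 46684 cells of the series. The same choice kept 2418, 1763 and 1038 cells at 7, 14 and 18 d, which served as a reference.

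The series held 1 droplet library at each of the 5 ages, made from the stromal vascular fraction of male C57BL6/J mice without any treatment. For each library 2 mice were pooled, 1 from each of 2 litters, and no step took out the lymph nodes of the fat pad. The ages were chosen by the study to span weaning, which it placed at 21 d. With 1 library per age there was no replicate, no test was possible, and age, litter mates, dissociation and library preparation cannot be told apart. Intervals below are exact and cover counting error only.

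The preadipocytes gave 66543632 UMIs at 21 d and 16023288 UMIs at 28 d, with a median of 16732.5 and 14819 UMIs and of 3997 and 3559 genes per cell. Mitochondrial genes took 3.61 and 3.47% of the UMIs and ribosomal protein genes 13.6 and 15.7%. Few cells lay near the collagen limit, since 36 cells at 21 d and 9 cells at 28 d lay just inside it (2 to 2.5% of UMIs), and 17 and 5 cells lay just outside (1.5 to 2%). The collagens and Pdgfra that the gate used are not results. Of the other preadipocyte markers, Dpt (1953 and 1866 CPM, that is UMIs per 1000000, at 21 and 28 d), Cd34 (923 and 943 CPM) and Lum (1394 and 1289.9 CPM) were high at both ages. Of the barcodes, 28 occurred in both libraries, and none of them passed the gate in both.

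Several gene programmes bear on such cells. Cells make cholesterol through the mevalonate pathway, whose enzymes are switched on together by the SREBP2 factor when sterols are scarce and off when sterols are plentiful. Imprinted genes, which are read from 1 parental copy, include a network that is active in growing young tissue and is turned down after birth. Interferons raise antiviral genes and the class I MHC molecules that show peptides to T cells, and glucocorticoids act on fat cell precursors through a nuclear receptor with its own set of target genes.

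The level of a gene is its UMIs summed over the preadipocytes of 1 library and scaled to 1000000 UMIs (CPM), and every ratio below compares 2 such levels. Of 31053 genes, 5711 reached 20 CPM at 21 d or 28 d and were compared. At least 2-fold higher at 21 d were 65 genes (1.14% of those compared), and at least 2-fold higher at 28 d were 92 genes (1.61%). At 1.5-fold, 406 genes (7.11%) were higher at 21 d and 262 (4.59%) at 28 d. The median gene stood 1.11 times as high at 21 d (log2 ratio 0.14), and with all ratios centred on it the counts became 47 and 138, which took the share of genes higher at 21 d among those called from 41.4 to 25.4%.

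T cells of the same libraries, 3371 at 21 d and 3110 at 28 d, were used as a second cell type that had gone through the same preparation. Among 5487 genes with at least 20 CPM in T cells, 329 were at least 2-fold higher at 21 d and 116 at 28 d. Of the 65 genes higher at 21 d in preadipocytes, 28 shifted alike, that is at least 2-fold the same way, in T cells, 27 did not, and 10 were under 5 CPM in T cells at both ages. Of the 92 genes higher at 28 d, 20 shifted alike, 38 did not and 34 were too low in T cells. Among all genes compared, 397 (6.95%) were at least 2-fold in T cells in the direction they took in preadipocytes.

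T cell droplets of the 21 d library held more collagen RNA than those of the other libraries. Col1a1, Col1a2 and Col3a1 summed to 5379 CPM in T cells at 21 d and to 742 CPM at 28 d, against 1177, 580.3 and 375 CPM at 7, 14 and 18 d. Of the 16 collagens compared, 14 reached 5 CPM in T cells, and the median log2 ratio of the collagens compared was 2.79 there. The T cell level of a gene is therefore given below as a share of its preadipocyte level. Of the 28 genes that shifted alike at 21 d, 19 had a T cell level of at least 10% of that in preadipocytes and 9 had less, and of the 20 at 28 d these numbers were 18 and 2.

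**Figure D1:**
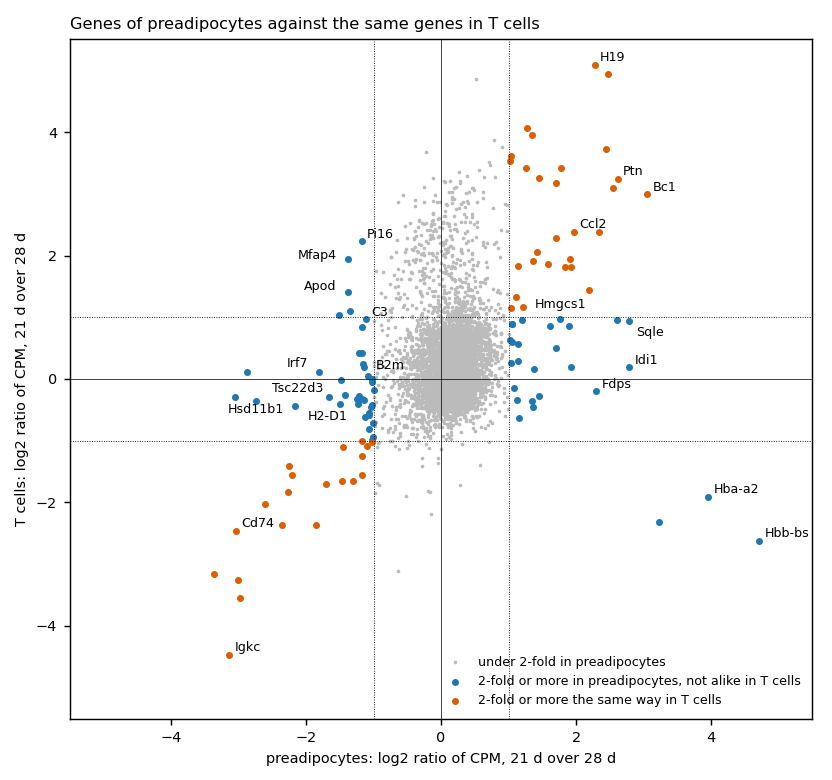
Log2 ratio of CPM, 21 d over 28 d, of each gene in preadipocytes (x axis) and in T cells (y axis). Points are genes with at least 20 CPM in preadipocytes and at least 5 CPM in T cells at either age, and dotted lines mark 2-fold. Sqle (2.79), Idi1 (2.79) and Fdps (2.30) lie far to the right at T cell values under 2-fold, whereas H19, Ptn and Bc1 shift upwards in both cell types and Cd74 and Igkc downwards in both.

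Genes of cholesterol synthesis were higher at 21 d. All 13 members of that list that reached 20 CPM were at least 1.5-fold higher at 21 d, 10 of them at least 2-fold, and none was higher at 28 d. Of the 10, 1 shifted alike in T cells. The median log2 ratio of the 13 was 1.76 (3.38-fold), against 0.14 for the median gene compared, and 0.48 for the same 13 genes in T cells. Some of the 13, such as Idi1, Sqle and Cyp51, were under 20 CPM at 28 d and entered through their 21 d level alone. The count and the median thus follow in part from the limit, and the same can hold for other lists. With a limit of 10 CPM the median was 1.47, and with 50 CPM 1.97. The summed level of the list in preadipocytes was 837, 290.1, 236, 671 and 228 CPM at 7, 14, 18, 21 and 28 d, so that 21 d returned towards the level of 7 d and 28 d was close to 18 d. In T cells the sum was 406, 319, 239, 349 and 267 CPM, a narrower range.

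The mevalonate steps come first in the pathway. Hmgcs1, the HMG-CoA synthase that feeds it, was at 161, 49.7, 37.5, 92.4 and 27.3 CPM in preadipocytes at the 5 ages, 3.38-fold higher at 21 d than at 28 d (interval 3.07 to 3.73). Mvk, mevalonate kinase, was at 33.7 and 15.3 CPM at 21 and 28 d. Idi1, the isomerase that makes the 5-carbon building block, was at 99.6, 13.1, 10.9, 37.0 and 5.37 CPM, 6.90-fold higher at 21 d (5.56 to 8.66). Fdps, which joins these blocks into farnesyl diphosphate, was at 38.1, 7.34, 5.06, 91.6 and 18.7 CPM, 4.91-fold higher at 21 d (4.37 to 5.53). Fdps was thus highest at 21 d, while Hmgcs1 and Idi1 were higher at 7 d than at 21 d.

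The later, sterol-making steps differed as much. Sqle, squalene epoxidase, was at 31.5, 8.30, 4.91, 28.4 and 4.12 CPM at the 5 ages, 6.91-fold higher at 21 d than at 28 d (5.403 to 8.97). Cyp51, which removes a methyl group from lanosterol, was at 33.3 and 8.80 CPM at 21 and 28 d, and Msmo1, a methyl sterol oxidase, at 31.9 and 12.2 CPM. Nsdhl, Fdft1 and Lss were under 20 CPM and outside the count, with log2 ratios of 1.47, 2.07 and 1.73.

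Control genes leaned the same way. Srebf2, which encodes SREBP2 itself, was at 48.5 and 23.4 CPM (log2 ratio 1.05), and Insig1, its sterol-dependent brake, was at 41.3 and 24.2 CPM (0.77). Abca1, which carries cholesterol out of cells, went the other way, with 51.7, 148, 128, 41.9 and 87.6 CPM and a log2 ratio of -1.06, and was picked for mention after its value was seen.

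Shares of cells gave the same picture. When each cell was thinned to 3000 UMIs, 2980 of 3887 preadipocytes at 21 d (76.7%, 75.3 to 78.0%) and 492 of 1060 at 28 d (46.4%, 43.4 to 49.5%) held a UMI of the cholesterol list. In T cells, with a median of 4031 and 5193.5 UMIs before thinning, the shares were 57.6 and 48.6%. Fdps had a UMI in 21.5% of preadipocytes at 21 d (20.2 to 22.8%) and 4.62% at 28 d (3.44 to 6.07%), and in 6.78 and 8.05% of T cells.

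**Figure D2:**
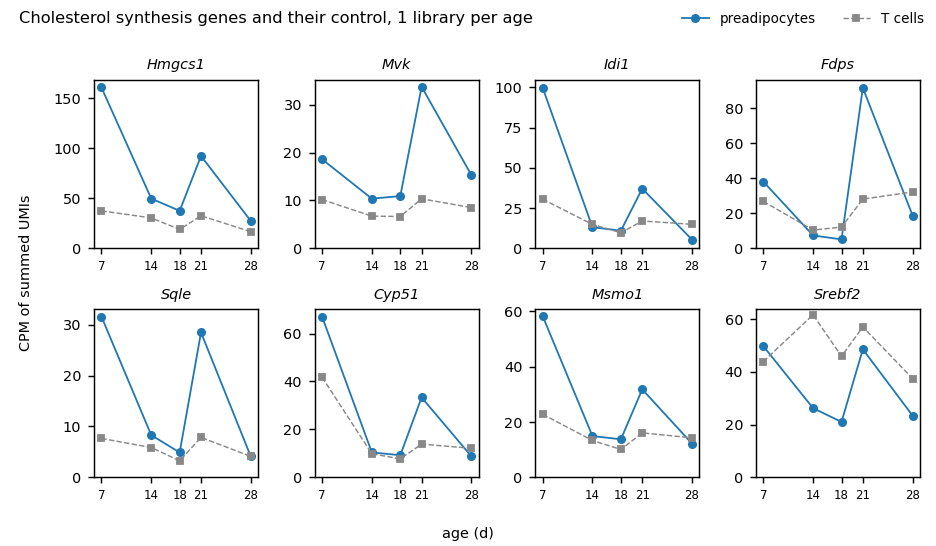
Levels (CPM of summed UMIs, y axis from 0) of 8 genes of cholesterol synthesis and its control at 7, 14, 18, 21 and 28 d (x axis) in preadipocytes (blue circles) and T cells (grey squares), 1 library per age. Fdps and Mvk peak at 21 d in preadipocytes (91.6 and 33.7 CPM), the T cell lines are flatter except for Srebf2, and all 8 genes are lower at 28 d than at 21 d in preadipocytes.

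For regulatory sequence, the 250 bases before each RefSeq start (GRCm38.p6) were searched on both strands for the sterol regulatory element spelled TCACNCCAC, which 331 of 27025 promoters held (1.22%). Of the 13 cholesterol members compared, 8 had such a promoter window, and 1, Hmgcs1, held the motif, 137 bases before its start at chr13:119690194-119690242 on the + strand. It is printed, with the match in capitals, because it was the only match among these 8 windows. Hmgcs1: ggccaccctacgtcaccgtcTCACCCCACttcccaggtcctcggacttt

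Fatty acid synthesis, which the related SREBP1 factor drives, leaned the same way with smaller ratios. Of 10 members compared, 3 were at least 2-fold and 5 at least 1.5-fold higher at 21 d, and none was higher at 28 d by 1.5-fold. The median log2 ratio was 0.59 in preadipocytes and 0.72 in T cells, so the lean of this list was not particular to preadipocytes. Elovl6, a fatty acid elongase, was at 30.8 and 9.49 CPM (3.25-fold, 2.75 to 3.85), Scd2, a desaturase, at 262 and 115 CPM (2.28-fold, 2.18 to 2.40) and Fads1, another desaturase, at 79.6 and 37.0 CPM (2.15-fold, 1.98 to 2.35). Fads1 shifted alike in T cells (8.76 and 3.47 CPM). Fasn, fatty acid synthase, at 41.8 and 20.9 CPM, lay just below the limit with a ratio of 1.998, and its T cell level was 30.7 and 18.6 CPM. Fabp5, a fatty acid binding protein, was also 2.58-fold higher at 21 d (69.8 and 27.1 CPM), whereas Fabp4 was level (628 and 620.3 CPM).

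A few genes of the imprinted growth network were higher at 21 d than at 28 d. Of 14 members compared, 3 were at least 2-fold higher at 21 d and none at 28 d, and 6 were at least 1.5-fold higher at 21 d. The median log2 ratio was 0.47 in preadipocytes and 2.53 in T cells, so the lean of this list was not particular to preadipocytes. The summed level of the list, which its most abundant members dominate, was 19210.0, 16613.5, 15083, 15507 and 17136.5 CPM at the 5 ages, higher at 28 d than at 21 d, with Dcn, the proteoglycan decorin, at 8893 and 12087 CPM. H19, an imprinted RNA of the Igf2 locus (chromosome 7, 142575529 to 142578143, - strand, GRCm38), was at 1795, 1994, 907, 352 and 72.7 CPM at the 5 ages, 4.84-fold higher at 21 d than at 28 d (4.56 to 5.13). Its level was lower at each age after 14 d. With thinned cells, 32.5% of preadipocytes at 21 d and 9.91% at 28 d held a UMI of H19, against 7.21 and 0.284% of T cells.

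Peg3, a paternally expressed zinc finger gene, was lower at each later age, with 1072, 987, 846, 500.4 and 246 CPM (2.03-fold between 21 and 28 d, 1.97 to 2.10). Its neighbour Zim1, which lies next to it on chromosome 7 (6671269 to 6696450, beside Peg3 at 6703892 to 6730431), was at 145, 199, 128, 44.3 and 17.9 CPM (2.48-fold, 2.20 to 2.81). Cdkn1c, an inhibitor of the cell cycle, was at 715, 354, 274, 223 and 116 CPM, Plagl1, a zinc finger factor of the network, at 216, 195, 130, 83.7 and 46.9 CPM, and Mest at 250.04, 99.4, 53.3, 53.9 and 34.3 CPM. Igf2, the growth factor, was too low for the count, with 56.9, 29.4, 9.04, 5.12 and 0.374 CPM, and its 341 UMIs at 21 d against 6 at 28 d gave a ratio of 13.7 (6.22 to 37.5). Dlk1, a preadipocyte factor, was also below 20 CPM at both ages after 741, 244 and 82.3 CPM at 7, 14 and 18 d. Grb10, Ndn and Igf2r had log2 ratios of 0.26 to 0.30, close to the median gene, and Meg3, Sgce and Dcn were at or below 0.

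H19 and Peg3 shifted alike in T cells, but their T cell levels at 21 d were 6.80 and 4.87% of those in preadipocytes. The same held for 2 other genes named by the size of their ratio. Ptn, the growth factor pleiotrophin, was at 1071, 412, 200.1, 210.3 and 34.4 CPM in preadipocytes (6.11-fold, 5.61 to 6.67) with 4.53% of that level in T cells, and Nrk, a kinase gene on the X chromosome, was at 271, 230.2, 133, 121 and 21.7 CPM (5.56-fold, 4.99 to 6.21) with 5.10%. Collagen RNA, at 89801 CPM in preadipocytes at 21 d, moved with these values in T cells, and its part in them was not tested.

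Bc1 and Lars2 were different, with T cell levels at 21 d of 55.4 and 228% of those in preadipocytes. Bc1, a small non-coding RNA, was at 5.21, 0.0439, 0.390, 40.4 and 4.87 CPM in preadipocytes and at 22.4 and 2.82 CPM in T cells at 21 and 28 d. Lars2, the mitochondrial leucyl-tRNA synthetase, was at 786 and 144 CPM in preadipocytes and at 1790.1 and 136 CPM in T cells.

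Chemokines and inflammatory genes were split between the ages. Of 20 members of the NF-kB and chemokine list, 6 were at least 2-fold higher at 21 d and 2 at 28 d. The median log2 ratio was 0.62 in preadipocytes and 1.62 in T cells, so this list too leaned to 21 d in both cell types. Ccl2, which attracts monocytes, was at 2209.6, 49.2, 26.2, 272 and 69.7 CPM (3.90-fold higher at 21 d, 3.67 to 4.15), and Cxcl1, which attracts neutrophils, at 3365, 265, 138, 791 and 231 CPM (3.43-fold, 3.31 to 3.54). Cxcl2, Cxcl10, Ptgs2 and Il6 had log2 ratios of 1.26 to 1.69. All 6 shifted alike in T cells, where the levels at 21 d were between 8.64% (Ptgs2) and 78.8% (Cxcl2) of those in preadipocytes. Levels were highest at 7 d for all 6 but Ptgs2, which was at 82.8 CPM at 7 d and 151 CPM at 21 d. In contrast, Cxcl14 was higher at each later age, with 1.23, 5.71, 11.9, 20.4 and 81.4 CPM (3.99-fold higher at 28 d, 3.70 to 4.31), and Cxcl13, which attracts B cells, was at 11.4 and 40.6 CPM (3.56-fold, 3.20 to 3.96).

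The remaining genes that the size of the ratio named at 21 d were fewer. Lsmem1 was at 45.8, 5.49, 3.43, 30.7 and 3.00 CPM (10.2-fold, 7.70 to 13.9), Fam71a at 25.8 and 6.55 CPM (3.94-fold, 3.23 to 4.84) and Gng10, a G protein subunit, at 23.3 and 6.30 CPM (3.70-fold, 3.03 to 4.57). Prlr, the prolactin receptor, was 2.85-fold higher at 21 d (2.51 to 3.24) with 4.06 CPM or less in T cells. Among members of the list of the unfolded protein and amino acid response, 8 of 16 were at least 1.5-fold higher at 21 d, against 7.11% of all genes compared. None was 2-fold higher, and the median log2 ratio was 0.58. The 8 included the chaperones Hspa5 (881 and 553 CPM) and Hsp90b1 (812 and 500.1 CPM) and the disulphide isomerase Pdia3 (314 and 176 CPM).

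The haemoglobin genes Hbb-bs and Hba-a2 had the largest ratios at 21 d. Hbb-bs was at 1125, 53.4, 326, 72.0 and 2.75 CPM at the 5 ages, Hba-a1 at 313, 15.2, 96.1, 27.4 and 2.93 CPM, and Hba-a2 at 224, 11.4, 74.5, 20.3 and 1.31 CPM. They encode the oxygen carrier of red blood cells and showed no steady course with age. After thinning, 157 of 3887 preadipocytes at 21 d (4.04%, 3.44 to 4.71%) and 29 of 1060 at 28 d (2.74%, 1.84 to 3.91%) held any UMI of the erythroid list, so the intervals of these shares overlapped. For Hbb-bs alone they did not, at 2.39% (1.94 to 2.92%) and 0.755% (0.326 to 1.48%). Shares of Hba-a1 were 1.00 and 1.13%, and those of Hba-a2 0.643 and 0.283%, with overlapping intervals. Mean UMIs of the erythroid list per thinned preadipocyte were 0.342 at 21 d and 0.0274 at 28 d. The means of the list thus differed far more than its shares, with more UMIs per holding cell at 21 d. In progenitor-list high cells, described at the end, the log2 ratio of Hba-a1 was 0.16, and with the stricter gate it was 0.13. The stricter gate gave log2 ratios of 1.52 for Hbb-bs and 1.28 for Hba-a2. Reads of Hba-a1 and Hba-a2 can be hard to assign, since the genes are near-identical.

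Some genes linked to glucocorticoids were higher at 28 d. Of 17 members of the list, 5 were at least 2-fold and 10 at least 1.5-fold higher at 28 d, none at 21 d, and the median log2 ratio was -0.79. Hsd11b1, the enzyme that regenerates active glucocorticoid within cells, was at 1.13, 2.11, 3.90, 3.94 and 32.8 CPM in preadipocytes, 8.32-fold higher at 28 d than at 21 d (7.16 to 9.69). A UMI of it was found in 1.29% of thinned preadipocytes at 21 d (0.956 to 1.69%) and in 9.91% at 28 d (8.17 to 11.9%). T cells held it at both ages, with 54.9 and 67.0 CPM.

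Among target genes, Tsc22d3 (also called GILZ) was at 44.7, 75.4, 100.2, 51.6 and 145 CPM (2.80-fold higher at 28 d, 2.65 to 2.95), while T cells were at 192 and 194 CPM. Fkbp5, a chaperone of the receptor, was at 2.98, 5.62, 15.9, 14.3 and 31.4 CPM (2.20-fold, 1.97 to 2.45). Ddit4, an inhibitor of mTOR signalling, was at 8.91, 9.49, 22.1, 9.05 and 42.9 CPM (4.75-fold, 4.25 to 5.30) and was the only one of the 5 that shifted alike in T cells (41.1 and 109 CPM). Sult1a1, a sulfotransferase, was at 13.3 and 28.2 CPM. Several levels dipped at 21 d relative to 18 d, as in Tsc22d3, Ddit4 and Sult1a1 (29.4 CPM at 18 d). Nr3c1, the receptor gene itself, had a log2 ratio of 0.44 and Per1 of 0.11, and Mt1, a metallothionein, was at 1068 and 1844 CPM, under 2-fold.

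Part of the interferon-response list was also higher at 28 d. Of 27 members compared, 7 were at least 2-fold and 10 at least 1.5-fold higher at 28 d, 1 (Irf1, log2 ratio 0.60) was 1.5-fold higher at 21 d, and the median log2 ratio was -0.41, against 0.11 in T cells. H2-D1, a class I heavy chain (chromosome 17, 35262730 to 35267499), was at 247, 254, 311, 434 and 1013 CPM (2.34-fold higher at 28 d, 2.29 to 2.38). B2m, its light chain (chromosome 2, 122147686 to 122153083), was at 451, 593, 643, 441 and 930.2 CPM (2.11-fold, 2.07 to 2.15). H2-K1, another heavy chain, was at 473 and 803 CPM, under 2-fold. H2-D1 and other class I genes are close in sequence, so reads may be split between them.

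Irf7, an interferon-induced transcription factor, was at 4.69, 5.14, 8.34, 14.0 and 49.0 CPM and thus 3.51-fold higher at 28 d (3.18 to 3.86). Ifit1, an antiviral RNA-binding protein, was at 8.80, 12.7, 12.7, 29.7 and 67.1 CPM (2.26-fold, 2.10 to 2.43), and Ifit3, its partner, at 8.60, 5.58, 9.12, 20.3 and 41.1 CPM (2.03-fold, 1.85 to 2.23). Ifi47 (9.32 and 20.4 CPM) and Usp18 (14.3 and 28.6 CPM, ratio 2.0002) completed the 7, and Usp18 lay at the limit. None of the 7 shifted alike in T cells. Not all members took part, since Gbp2 had a log2 ratio of -0.19, and Irf9 and Gbp7 of 0.05 and 0.10.

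At 28 d the T cell genes Cd3d and Trbc2 stood at 0.623 and 0.595% of their T cell level, and the B cell genes Cd79a and Cd79b at 1.22 and 1.12% of their B cell level. B2m stood at 62.8% of its T cell and 68.3% of its B cell level, H2-D1 at 73.5 and 71.0%, and Ifit1 and Irf7 were higher in preadipocytes than in T or B cells. The part of lymphocyte RNA in the differences was not tested.

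The same 250 bases were searched for the interferon-stimulated response element, spelled as TTTC, any 2 bases and TTTC again, on both strands, which 936 of 27025 promoters held (3.46%). Of the 27 members, 23 had a window and 10 held the motif. Those 10 included Gbp2, Gbp3, Gbp7, Isg15, Bst2, Stat2 and Irgm1, which were not 2-fold higher at 28 d. Windows of 3 of the 7 genes higher at 28 d are shown with the match in capitals. B2m is read at chr2:122147528-122147577 (motif on the - strand), Ifit1 at chr19:34640765-34640814 and Ifit3 at chr19:34583353-34583402 (motif on the + strand), all written along the + strand, and Ifit1 and Ifit3 each held a second match.
B2m: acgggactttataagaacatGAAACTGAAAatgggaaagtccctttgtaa
Ifit1: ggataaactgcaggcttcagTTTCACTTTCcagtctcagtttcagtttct
Ifit3: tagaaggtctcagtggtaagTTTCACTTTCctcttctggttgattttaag

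Complement genes leaned to 28 d as a list. All 9 members compared were higher at 28 d, 5 of them by at least 1.5-fold and 1 by 2-fold, and the median log2 ratio was -0.68. C3, the central complement protein, was higher at each later age, with 12.5, 32.4, 191, 436 and 947 CPM (2.17-fold between 21 and 28 d, 2.13 to 2.22), and its T cell level was 1.78% of that. C4b, at 93.5 and 187 CPM, lay just under 2-fold with a ratio of 1.998, and Serping1, the C1 inhibitor, was at 877 and 1633 CPM.

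**Figure D3:**
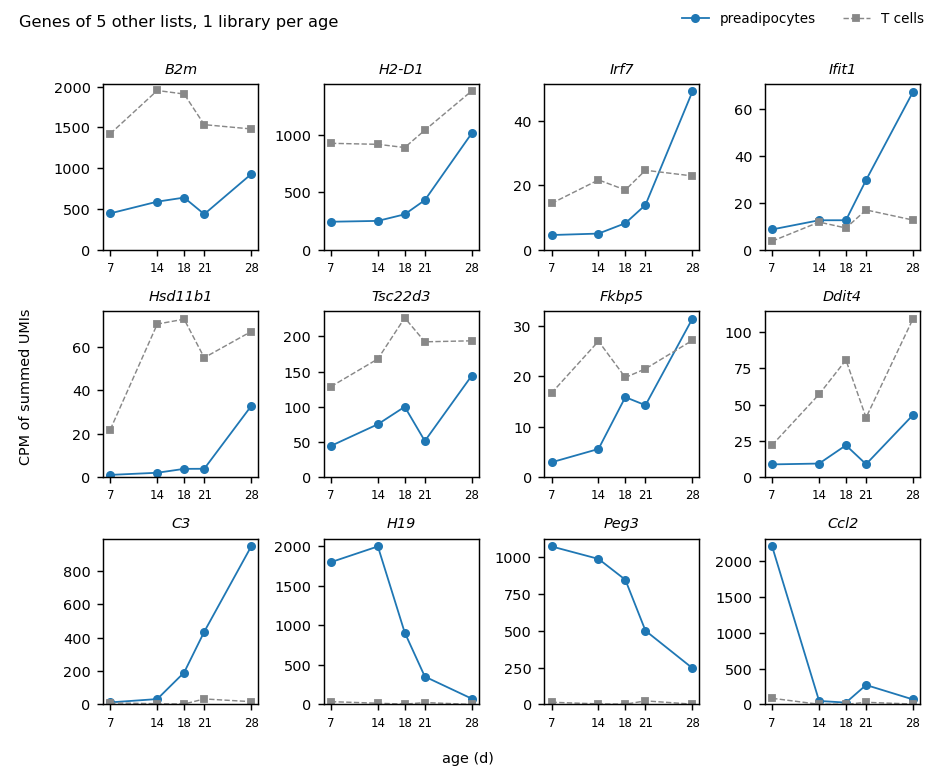
Levels (CPM of summed UMIs, y axis from 0) at 7, 14, 18, 21 and 28 d (x axis) in preadipocytes (blue circles) and T cells (grey squares) of genes of the interferon, glucocorticoid, complement, imprinted and NF-kB lists, 1 library per age. Irf7, Ifit1, Hsd11b1 and C3 are highest at 28 d in preadipocytes (49.0, 67.1, 32.8 and 947 CPM), H19 and Peg3 are lowest there, and Ccl2 is highest at 7 d.

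Of the other genes with large ratios at 28 d, those in this paragraph were under 5 CPM in T cells at both ages. Galnt15, a glycosyltransferase, was at 0.788, 7.03, 12.7, 5.00 and 48.8 CPM (9.75-fold higher at 28 d, 8.57 to 11.1), and Myoc, myocilin, at 0.719, 5.62, 4.28, 2.58 and 21.7 CPM (8.40-fold, 6.98 to 10.1). Inmt, a methyltransferase, was at 1.40, 15.6, 46.9, 19.1 and 111 CPM (5.80-fold, 5.395 to 6.24), and Pla1a, a phospholipase, at 1.51, 7.34, 11.2, 24.5 and 103 CPM (4.20-fold, 3.92 to 4.50). Both Galnt15 and Inmt were lower at 21 d than at 18 d. Ctgf, a matricellular growth regulator, was at 10.3 and 46.9 CPM (4.55-fold, 4.10 to 5.06), Cilp at 18.9 and 82.0 CPM (4.35-fold, 4.02 to 4.70) and Dmkn, dermokine, at 5.20 and 22.3 CPM (4.28-fold, 3.69 to 4.98). Plac9b was at 21.1, 29.7, 25.5, 4.13 and 39.3 CPM, and its near-identical copy makes its count uncertain.

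The receptor genes Ramp1 and Il18r1 also had large ratios at 28 d. Ramp1, which with its partner forms the receptor of the neuropeptide CGRP, was at 6.54, 6.24, 4.67, 3.59 and 26.3 CPM (7.31-fold, 6.23 to 8.61), and Il18r1, a chain of the interleukin-18 receptor, at 0.480, 0.747, 1.48, 3.85 and 25.7 CPM (6.68-fold, 5.70 to 7.84). T cells held Ramp1 at 91.0 and 84.1 CPM and Il18r1 at 37.4 and 48.0 CPM, without a 2-fold difference. Cd52, a lymphocyte surface protein, was at 7.80 and 34.9 CPM in preadipocytes, which at 28 d was 1.25% of its T cell and 1.18% of its B cell level. Bmp4, a growth factor that commits precursors to the fat lineage, was the only 1 of 8 TGFb and BMP ligands past 2-fold (15.97 and 39.5 CPM, 2.47-fold, 2.24 to 2.73), and none of the 9 receptors was.

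Genes that shifted alike in T cells at 28 d held most of the B cell and class II MHC genes. Igkc, an antibody light chain, was at 5.58, 4.26, 7.48, 10.3 and 91.0 CPM in preadipocytes and at 64.1 and 1420 CPM in T cells at 21 and 28 d. Cd74, the class II invariant chain, was at 12.5 and 103 CPM, H2-Aa at 5.52 and 33.8 CPM and H2-Eb1 at 6.64 and 34.0 CPM. At 28 d these 4 stood at 0.708, 1.17, 1.21 and 1.21% of their B cell level, near Cd79a and Cd79b. B cells by the gate (at least 2 UMIs of Cd79a, Cd79b and Ms4a1, collagen share under 2%) numbered 1543 at 21 d and 2359 at 28 d. The B cell marker list as a whole summed to 113 and 312 CPM in preadipocytes, and the T cell list to 21.2 and 39.2 CPM. The macrophage and dendritic cell list summed to 34.1 and 85.9 CPM. The part of these lists in the results was not tested.

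Gstp1 and Ccdc85b were also low at 21 d in both cell types, without being lymphocyte genes. Gstp1, a glutathione transferase, was at 55.6, 43.6, 55.6, 13.2 and 104 CPM in preadipocytes and at 6.22 and 72.4 CPM in T cells, and Ccdc85b was at 12.4, 26.7, 31.1, 2.00 and 20.5 CPM and at 1.78 and 15.9 CPM. Both were lowest of the 5 ages at 21 d. Gstp1 has near-identical copies, which makes its count uncertain.

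Few matrix and progenitor genes were past 2-fold in either direction. Over all genes compared, 1.14% were at least 2-fold higher at 21 d and 1.61% at 28 d. At 1.5-fold these shares were 7.11 and 4.59%. Of 27 matrix glycoproteins and proteoglycans, 1 was at least 2-fold higher at 21 d (Fbn2, 2.05-fold, alike in T cells) and 2 at 28 d (Mfap4, 2.60-fold, and Fmod, 2.02-fold), and at 1.5-fold these numbers were 3 and 7. Among 10 preadipocyte markers, of which Pdgfra set the gate, Apod was higher at 28 d (134 and 349.6 CPM). Of 12 markers of the DPP4+ progenitors, Smpd3 was higher at 21 d (441 and 174 CPM, alike in T cells at 5.09% of that level) and Pi16 at 28 d (840.3 and 1901 CPM), and the median log2 ratio was -0.12. No member of the immediate-early list (15 compared, median log2 ratio 0.22), the circadian list (7, -0.15), the Wnt list (10, -0.02) or the IGF and growth hormone list (15, 0.10) was past 2-fold. Igf1 came closest in the latter, with 616 and 335 CPM (1.84-fold, 1.79 to 1.89).

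Further lists held few members past 2-fold. Adipogenic regulators (5 compared, median log2 ratio -0.19), cell cycle genes (8, 0.14) and markers of the F3+ cells (8, -0.25) held none. The gate had taken out cells with a Mki67 UMI, which left 3914 of 4517 cells at 21 d and 1077 of 1099 at 28 d. The cell cycle list thus cannot tell how far dividing cells differed between the ages. Car3, carbonic anhydrase 3 of fat cells, was 3.26-fold higher at 21 d (70.6 and 21.7 CPM) and at 165 and 18.2 CPM in T cells, and with Fabp5 it made up the 2 of 6 lipid storage genes past 2-fold. Hk2, a hexokinase, was the only 1 of 13 hypoxia and glycolysis genes (109 and 46.9 CPM) and shifted alike in T cells, and Prlr the only 1 of 10 markers of committed ICAM1+ cells. At 28 d, Hspa1b (116 and 257 CPM) and Hspb1 (27.1 and 66.9 CPM, alike in T cells) were higher among 12 heat shock genes, Gpx3 (325 and 932 CPM) among 21 antioxidant genes, Serpine2, a protease inhibitor (17.8 and 49.4 CPM), among 22 matrix processing genes, and Ctgf among 12 TGFb and BMP inhibitors and targets.

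**Figure D4:**
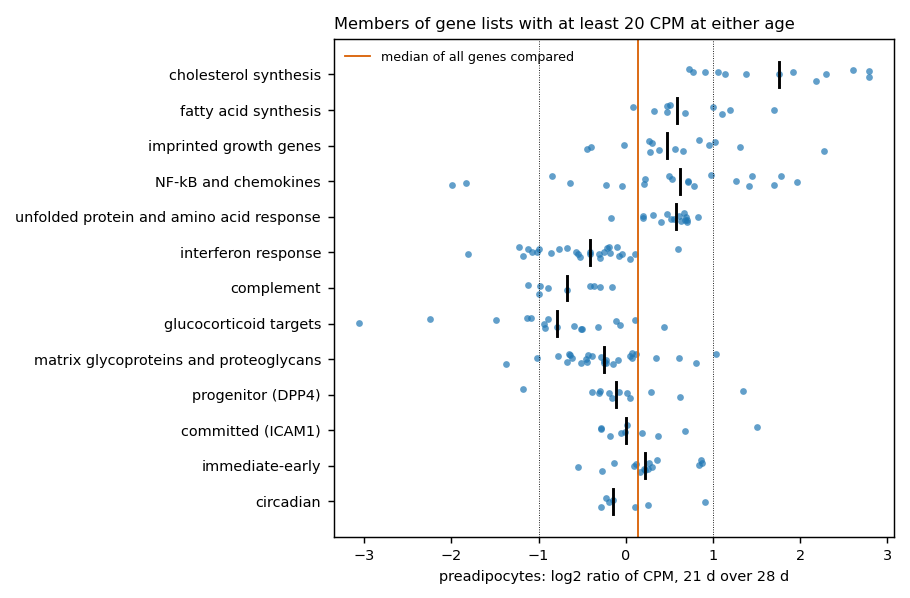
Log2 ratio of CPM in preadipocytes, 21 d over 28 d (x axis), of the members of 13 gene lists that reached 20 CPM at either age; each point is a gene, black bars are list medians, the orange line is the median of all genes compared (0.14) and dotted lines mark 2-fold. Of these 13 lists, cholesterol synthesis (median 1.76) lies furthest to the right and glucocorticoid targets (-0.79) and complement (-0.68) furthest to the left. Marker lists of blood cells are not plotted, among them erythroid (3.96), B cell (-3.04) and macrophage and dendritic cell markers (-2.44).

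The differences were set against the other 3 ages. Of the 65 genes higher at 21 d, 30 were highest of the 5 ages at 21 d and 35 were lowest of the 5 at 28 d. Of the 92 genes higher at 28 d, 71 were highest of the 5 at 28 d and 40 were lowest at 21 d. Among all 5711 genes compared, 1439 were highest at 21 d, 817 were highest at 28 d, 502 were lowest at 21 d and 1690 were lowest at 28 d. A called gene cannot be highest at the age where it was lower, or lowest at the age where it was higher. The counts for called genes therefore follow in part from the call.

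Preadipocytes are a mixture, so the ratios were also taken within classes of cells. Each cell was thinned to 3000 UMIs and classed by its UMIs of the progenitor genes Dpp4, Pi16, Cd55 and Anxa3, as high (at least 4), low (at most 1) or intermediate. High cells were 57.1% of the 3887 cells left at 21 d (55.5 to 58.7%) and 62.3% of 1060 at 28 d (59.3 to 65.2%), low cells were 34.3 and 33.2%, and 8.62 and 4.53% lay between the limits. All 65 genes higher at 21 d were higher there in high and in low cells, and 47 were at least 2-fold in both. Of the 92 genes higher at 28 d, 90 kept that direction in high cells and 90 in low cells, and 61 were at least 2-fold in both. The genes had been called on sums over these same cells, so agreement in direction was largely set beforehand and is no independent support.

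The median log2 ratio of the cholesterol list was 1.80 in high and 1.64 in low cells. Idi1 was 3.17 and 2.23, H19 2.36 and 1.99, and Hsd11b1 -2.64 and -3.14 on that scale. Interferon-response members had a median of -0.59 in high and -0.21 in low cells, a difference without a test, with Irf7 at -1.96 and -1.10 and H2-D1 at -1.16 and -1.36. The 4 exceptions in direction were Dmkn (0.22) and Pi16 (0.28) in low cells and Fbln7 (0.45) and Fmod (0.23) in high cells, picked for mention after their values were seen, and Pi16 is also 1 of the genes that defined the classes.

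**Figure D5:**
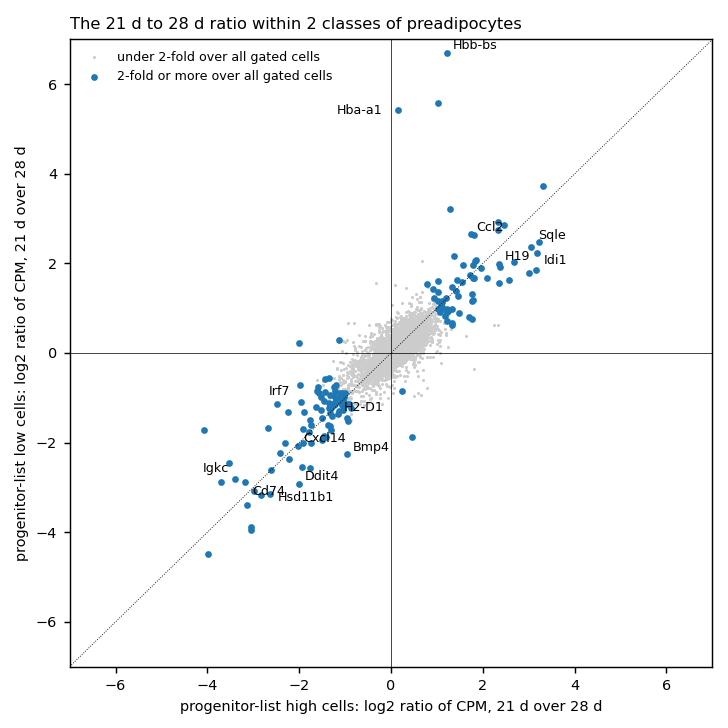
Log2 ratio of CPM, 21 d over 28 d, within progenitor-list high cells (x axis) and low cells (y axis) for the 5711 genes compared, with genes at least 2-fold over all gated cells in blue and equal ratios on the dotted line. Nearly all blue points lie in the lower left or the upper right, and Hbb-bs (1.22 and 6.70) and Hba-a1 (0.16 and 5.43) lie far above the line.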

How the data were processed

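The single-cell libraries were made with the 10x Genomics 3' chemistry from collagenase-digested stromal vascular fraction. Per the study's methods and the submitters' processing notes, the authors mapped reads to GRCm38 (mm10) with Cell Ranger 3.1.0, used Scrublet against doublets and kept cells of 200 to 6000 genes whose mitochondrial UMIs did not pass 20%. They deposited counts (UMIs per gene and cell, not normalized) in 1 matrix of 31053 genes and 46684 cells, in which 0 cells lay outside these limits. No further doublet caller was run. The gene annotation release is not given in the sources used here. Libraries were assigned through barcode suffixes and sample descriptions.

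Cells were gated on raw UMIs as described, UMIs were summed per library, and CPM ratios were compared among genes with at least 20 CPM at either age, with a sum of 0 set to 3 counts. Intervals were exact (conditional for ratios, Clopper-Pearson for shares, 95%), and PCR duplicates were removed by the UMIs. T cells had at least 2 UMIs of Cd3d, Cd3e and Cd3g and a collagen share under 2%. Named genes were the 12 largest ratios in each direction that did not shift alike in T cells, the 6 largest that did, predicted genes left out, and members of 38 gene lists. The members and lists were chosen with earlier results of these data known, so no list is independent support. The scripts were tested on simulated counts. Alternatives covered the level limit, fold, pseudocount, scaling, mean over cells, thinning to 5000 UMIs and a stricter gate (5% collagen, 2 Pdgfra UMIs). Others were an incomplete filter against cells with other lineage UMIs and an equal class mix. Added after seeing the data were the T cell level and the mean of 14 and 18 d as reference. Positions came from GENCODE M21 (79 of 80 symbols matched) and promoter windows from RefSeq GRCm38.p6. Python 3.11.15, numpy 2.4.6, scipy 1.17.1, pandas 2.3.3 and matplotlib 3.10.9 were used. Bulk data were not analysed here. Some genes that the naming rule selects are not reported here.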

Additional observations from a re-analysis of the deposited data

Results flagged for a closer look

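The genes below differed at least 2-fold between 21 d and 28 d in preadipocytes and at least 2-fold in the opposite direction in T cells of the same libraries. The difference between the cell types was not tested, as there was 1 library per age. Log2 ratios of 21 d over 28 d were 4.71 in preadipocytes and -2.62 in T cells for Hbb-bs, 3.96 and -1.91 for Hba-a2, and 3.23 and -2.32 for Hba-a1, the haemoglobin chains. They were -1.18 and 2.23 for Pi16, a peptidase inhibitor of progenitors, -1.38 and 1.94 for Mfap4, a microfibril protein, -1.38 and 1.42 for Apod, a lipid carrier, and -1.52 and 1.04 for Gpx3, a secreted glutathione peroxidase. They were -1.35 and 1.11 for Gm26532, a predicted gene. The T cell levels of Pi16, Mfap4 and Apod at 28 d were 17.9, 1.61 and 2.61 CPM, against 1901, 227 and 349.6 CPM in preadipocytes. Collagens leaned to 21 d in T cells as well, with a median log2 ratio of 2.79 there. The T cell ratios of Pi16, Mfap4, Apod and Gpx3 all lay below that median. Whether stromal RNA in T cell droplets accounts for these T cell ratios was not tested. For the haemoglobin genes, the share of thinned T cells with a UMI was higher at 21 d, unlike the summed T cell level. This share was 7.60 and 1.38% at 21 and 28 d for Hbb-bs, 3.16 and 0.567% for Hba-a1, and 2.19 and 0.496% for Hba-a2.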

How the results depend on the processing

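With 1 library per age, nothing here measures how far 2 libraries of the same age would differ. At 28 d the level limit of 20 CPM corresponds to far fewer UMIs than at 21 d. No paired analysis was possible because each age had 1 library and no replicate numbers. Across 8 alternatives, 287 of 288 values of the 36 genes named by the size of their ratio kept their direction and at least 2-fold, and the exception was Hba-a1 under the stricter gate (log2 ratio 0.13). These genes were picked for large ratios in the same libraries, so this agreement was largely set beforehand and is no independent support. The size of a ratio could still move past its counting interval. That of Cilp went from a log2 ratio of -2.12 to -1.54 with cells thinned to 5000 UMIs. Medians were recomputed for the 7 lists below and none of these changed sign. Medians between 0 and 0.14, such as that of the IGF and growth hormone list (0.10), turn negative when centred on the median gene. The cause of the moves was not tested.

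The 65 genes higher at 21 d and 92 at 28 d became 36 and 43 at a limit of 50 CPM and 406 and 262 at 1.5-fold, where 106 in place of 48 shifted alike in T cells. With the mean of 14 and 18 d as the reference, 161 genes were higher and 144 lower at 21 d, and 152 were higher and 176 lower at 28 d. Centring the ratios gave 47 and 138 genes.

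Median log2 ratios of lists moved as follows. With a limit of 10 CPM they were 1.47 (cholesterol synthesis), 0.56 (imprinted), -0.84 (glucocorticoid) and 0.50 (NF-kB), and with 50 CPM 1.97 (cholesterol), 0.79 (fatty acid), -0.66 (interferon), -0.79 (complement), -0.55 (glucocorticoid) and 0.71 (NF-kB). Adding 5 CPM gave 1.47 for cholesterol. Centring gave 1.61 (cholesterol), 0.33 (imprinted), -0.82 (complement), -0.93 (glucocorticoid) and 0.48 (NF-kB). Leaving mitochondrial, ribosomal and haemoglobin genes and Malat1 out of the total gave 1.58 (cholesterol), -0.82 (glucocorticoid) and 0.50 (NF-kB). Cells thinned to 5000 UMIs gave 1.54 (cholesterol), -0.57 (complement) and -0.73 (glucocorticoid). The stricter gate gave -0.64 (complement), -0.70 (glucocorticoid) and 0.80 (NF-kB), and an equal mix of cell classes -0.83 (glucocorticoid). A filter against UMIs of other lineages gave -0.74 (complement), -0.87 (glucocorticoid) and 0.52 (NF-kB). It kept 664 of 1077 cells at 28 d, while 57.4% of unthinned preadipocytes there held a UMI of Igkc. Cells with other lineage UMIs thus remained, and the log2 ratios of Igkc and Cd74 were still -3.01 and -2.44.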
